A study of Mus musculus with 11 samples.

Results

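Transforming growth factor beta (TGFb in the labels) was tested on primary microglia, the resident macrophages of the brain, by comparing cells given TGFb at 20 ng/ml for 48 h with cells given no stimulus. The 3 arrays labelled TGFb and the 3 labelled with no treatment were taken, 6 of the 11 arrays of the series, and all 8952 genes with a detected probe were compared. All cells came from the brains of newborn C57BL/6J mice and were grown in medium with fetal calf serum, without any genotype difference between groups, and the labels give no culture time for the untreated cells. The other arrays held cells exposed for 48 h to 100 U/ml of IL-4 (3 arrays) or for 16 h to a mixture of 100 ng/ml of LPS and 20 ng/ml of IFNg (2 arrays). They entered the model that estimates the spread between replicates. The labels number the replicates but do not say whether they were separate cultures or litters, so every p-value reflects the scatter among these samples alone, which may be technical.

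TGF-beta is made as a latent complex that is held on cell surfaces and matrix and is freed by integrins. The free ligand binds the type II receptor, which recruits and activates the type I receptor, and the type I receptor phosphorylates the transcription factors Smad2 and Smad3. Among the genes that the Smads induce are inhibitors of the pathway itself. In the brain the cytokine is known for maintaining the gene programme by which microglia differ from other macrophages.

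TGFb replicates 1 and 2 were on slide 1, and TGFb replicate 3 was on slide 2 with all untreated arrays, so slide and treatment could be told apart in part only. The number of probes detected was 12991 to 13979 on the TGFb arrays and 13869 to 13989 on the untreated arrays, at median signals of 120.1 to 126.2. Pairs of TGFb arrays correlated across genes at 0.972 to 0.983, pairs of untreated arrays at 0.968 to 0.983 and pairs of one array from each group at 0.952 to 0.977. IL-4 replicate 1 stood apart from the other IL-4 arrays (r = 0.945 and 0.954, against 0.987 between those), and since all groups share 1 estimate of spread, counts are also given without it. Of 18 microglia markers 17 had a named probe here and 16 were detected on all 6 arrays. Among markers of other cells, 12 of 14 for neurons were detected on none of the 6 arrays (Snap25 and Tubb3 among them), and 10 of 11 for lymphocytes and granulocytes. The exception there was S100a8, a calcium-binding protein of granulocytes, which stood 1.65 higher with TGFb (adjusted p = 0.062) with arrays that did not overlap. At least 1 of the 6 arrays detected 6 of 12 astrocyte markers (Gfap and Slc1a3 among them, Aqp4 and Sox9 not), 6 of 13 for the oligodendrocyte lineage (Mbp, Cnp and Mag but not Olig2 or Sox10), 3 of 12 for endothelium (Pecam1, Flt1 and Egfl7 but not Cdh5 or Cldn5) and 6 of 16 for fibroblasts and mural cells (Col1a1, Col1a2 and Dcn but not Col3a1 or Pdgfrb). On all 6 arrays the number detected was 0 for astrocytes, 3 for the oligodendrocyte lineage, 1 for endothelium and 1 for fibroblasts and mural cells.

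After TGFb, 55 genes rose and 33 fell at an adjusted p below 0.05 (limma, Benjamini-Hochberg over all genes), which is 0.614% and 0.369% of the genes tested and 0.983% together. The fold changes of these 88 genes ran from 1.70 to 25.5, and 75 were at least 2-fold. C-type lectin receptors and the chemokine Ccl9 led the falls, and the growth factor binding protein Igfbp5, the serotonin receptor Htr2b and the TGF-beta feedback gene Pmepa1 led the rises. The TGFb and untreated arrays did not overlap for any of the 88, as in 17.7% of all genes (9.17% with TGFb higher, 8.55% with TGFb lower). With slide as a block 9 genes were called (0.101%), all among the 88. They were the rises of Htr2b, Sgk1 and Mcam (0.0335%) and the falls of Clec4a1, Clec4a3, Clec4b1, Ccl9, Cd93 and Rgl1 (0.067%). On slide 2 alone, where the single TGFb array left no spread of its own, 0 genes passed (740 had an unadjusted p under 0.05, by limma). Without IL-4 replicate 1 there were 228 calls (2.55%), 126 higher (1.41%) and 102 lower (1.14%), the 88 included. Median scaling in place of quantile normalization gave 24 rises and 42 falls, and moved the median difference of all genes from 0.01 to -0.11.

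Single arrays weighed on the number of calls. It was 58 without TGFb replicate 1, 8 without TGFb replicate 2, 6 without TGFb replicate 3, 11 without untreated replicate 1, 43 without untreated replicate 2 and 97 without untreated replicate 3. Of the 38 called genes named by the rule given with the processing, 6 passed whichever of these arrays was left out (Clec4a1, Clec4a3, Clec4b1, Rgl1, Htr2b and Sgk1). Called genes described outside that rule, such as Mcam, were not followed in this way. For the other 32 of the 38 the call was lost in at least 1 of these removals, where the highest adjusted p of a gene was 0.0781 to 0.204.

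**Figure D1:**
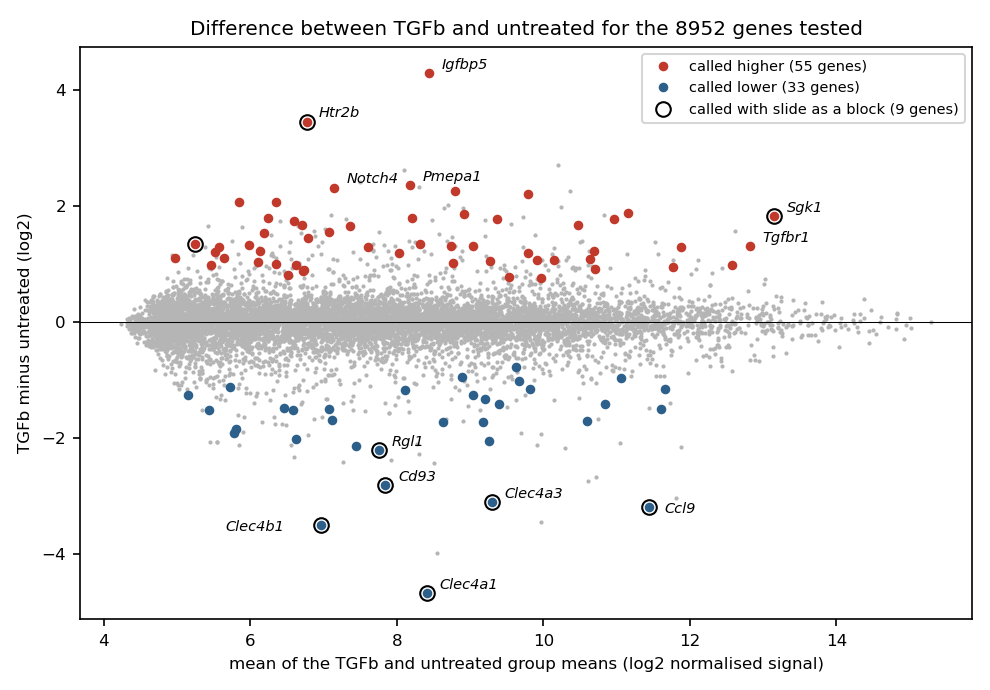
Difference between the TGFb and untreated group means (vertical axis, log2) against the mean of both group means (horizontal axis, log2 normalised signal) for the 8952 genes tested, with the 55 called higher in red, the 33 called lower in blue and the 9 called with slide as a block ringed. The largest differences are Clec4a1 at -4.67 and Igfbp5 at 4.30, and grey points, some at a similar distance from 0, are genes that were not called.

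Among the parts of the pathway that receive the signal, the type I receptor rose and the molecule that holds the latent ligand fell. Tgfbr1, the type I receptor kinase, measured 13.53, 13.50 and 13.38 (log2 normalised signal, the scale of all levels here) on the TGFb arrays and 12.10, 12.10 and 12.29 on the untreated arrays. The arrays of each group lay close together, and the rise of 1.31 ± 0.20 log2 units (SE, adjusted p = 0.0185), or 2.48-fold, exceeded their spread. Nrros, which tethers latent TGF-beta1 to the microglial surface in mice, measured 11.11, 11.06 and 11.10 with TGFb and 12.35, 12.35 and 12.03 without. It fell by 1.16 ± 0.20 (adjusted p = 0.0299). The ligand gene Tgfb1 itself was at 8.80, 8.88 and 8.77 with TGFb and at 9.80, 9.34 and 9.52 without, a difference of -0.74 (adjusted p = 0.198) between arrays that did not overlap.

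Of the 22 tested ligands, activators, receptors and Smads, Tgfbr1 rose, Nrros fell and 20 were not called, beside 0.983% of all genes called. The list had a median difference of 0.04 (-0.08 by median scaling), beside 0.01 over all genes. The type II receptor Tgfbr2 was at 0.05 (adjusted p = 0.979), with overlapping arrays at 12.90 to 13.27 and 12.90 to 13.30. The signal transducers Smad2 and Smad3 were at 0.06 (adjusted p = 0.933) and -0.25 (adjusted p = 0.784), and Smad7, an inhibitory Smad, was not tested because its probe did not pass the detection filter. Without IL-4 replicate 1 the list had 2 rises and 2 falls, with the BMP receptor Bmpr2 at 0.93 (adjusted p = 0.0173) and Tgfb1 (adjusted p = 0.0332) as the additional ones, both named after their values were seen. The call of Tgfbr1 was lost without any array except untreated replicate 3 (adjusted p = 0.0513 to 0.0932) and with slide blocked (1.33, adjusted p = 0.0853). The same held for Nrros (adjusted p = 0.0713 to 0.135, and 0.106 with slide blocked).

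The feedback arm of the pathway held 2 of the larger rises. Pmepa1, a membrane protein that binds the receptor-regulated Smads and limits the signal, measured 9.82, 9.11 and 9.14 with TGFb and 7.66, 5.79 and 7.55 in untreated cells. All TGFb arrays were above all untreated arrays, of which replicate 2 was the lowest, and the rise was 2.36 ± 0.46 (adjusted p = 0.0442), or 5.12-fold. A dimmer probe of the same gene stood at 0.74 (adjusted p = 0.351). Spsb1, a substrate adaptor of ubiquitin ligases that acts on the type II receptor, measured 10.25, 9.69 and 9.61 against 8.07, 7.25 and 8.62, a rise of 1.87 ± 0.31 (adjusted p = 0.0261). Skil, the Smad corepressor SnoN, was at 11.51, 11.50 and 11.43 against 10.96, 10.80 and 10.79. Its arrays did not overlap, but the difference of 0.63 ± 0.19 was not called (adjusted p = 0.175).

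Of 23 tested feedback regulators and target genes, 2 rose (8.7%, beside 0.614% of all genes) and 21 were not called. In the list 18 were above 0, with a median of 0.38 (0.10 with slide blocked, 0.25 by median scaling). Without untreated replicate 2 the median was 0.13 with 14 above 0, and without TGFb replicate 2 it was 0.18. The BMP-responsive Id3, a dominant negative helix-loop-helix factor, lay on the other side at -1.36 (adjusted p = 0.0868, and 0.0374 without IL-4 replicate 1). Matrix targets varied between untreated arrays: Fn1, fibronectin, was at 10.30, 4.77 and 12.33 there and at 11.70, 10.90 and 9.31 with TGFb (difference 1.50, adjusted p = 0.823). Id3 and Fn1 were picked after their values were seen. Pmepa1 passed without untreated replicate 3 only (adjusted p = 0.0444, otherwise 0.0533 to 0.134), and Spsb1 missed without TGFb replicates 1, 2 or 3 and untreated replicate 1 (adjusted p = 0.0713 to 0.106). With slide blocked neither passed (adjusted p = 0.156 and 0.11).

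**Figure D2:**
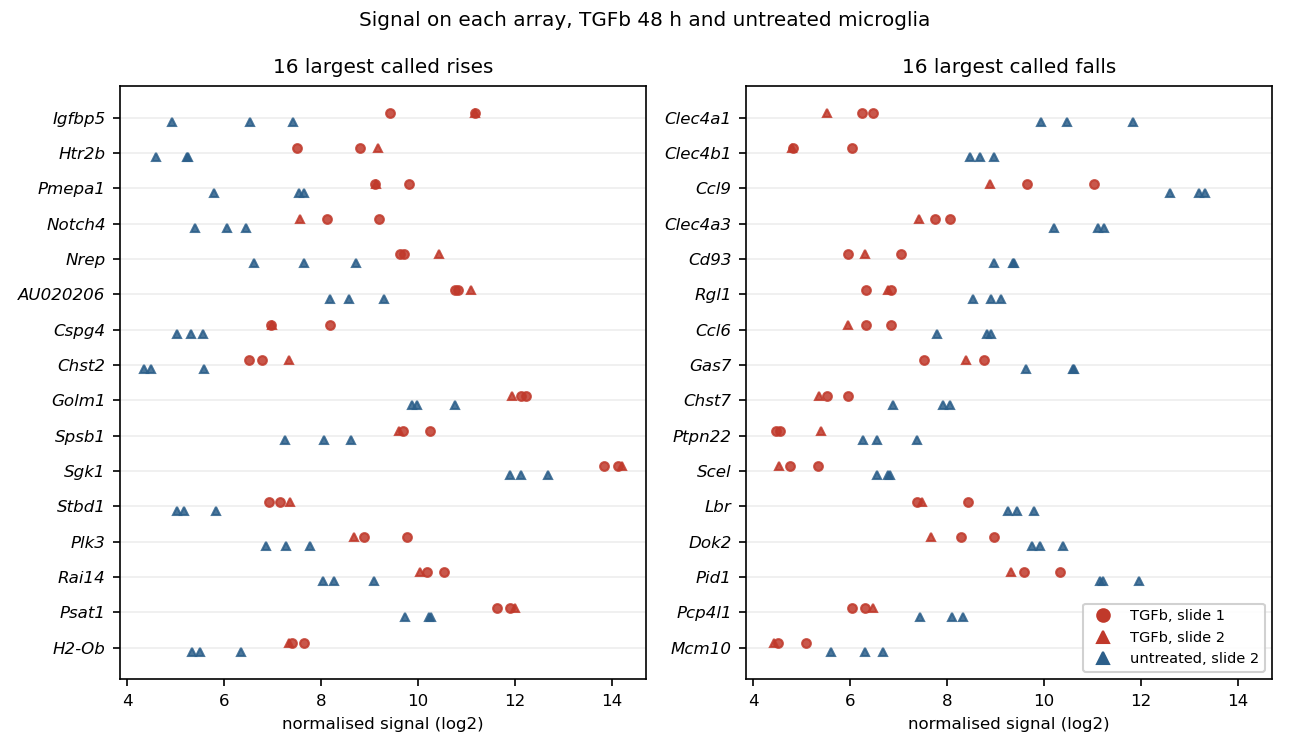
Normalised signal (log2, horizontal axis) on each TGFb array (red) and each untreated array (blue) for the 16 largest called rises and the 16 largest called falls, with circles for slide 1 and triangles for slide 2. These genes were chosen among those whose red and blue points do not overlap, and the red triangle is the one TGFb array on the same slide as the untreated arrays.

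A secreted binding protein and several surface receptors were among the leading rises. Igfbp5, a secreted protein that binds insulin-like growth factors, measured 9.42, 11.18 and 11.17 with TGFb and 4.93, 6.53 and 7.42 without. It was detected on 2 of 3 untreated arrays, and rose by 4.30 ± 0.66 (adjusted p = 0.0182), or 19.6-fold. Both of its other probes moved likewise, by 4.39 and 4.14 (adjusted p = 0.0217 and 0.016). Of 10 tested genes of the insulin-like growth factor system Igfbp5 alone was called, beside 0.983% of all genes. Its relative Igfbp4 was at -1.91 (adjusted p = 0.112), picked after its value was seen.

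Htr2b, a serotonin receptor coupled to Gq, measured 7.51, 8.81 and 9.18 with TGFb, against 4.61, 5.27 and 5.24, near the level of undetected probes, in untreated cells. The lowest TGFb array was well above the highest untreated array, and the rise was 3.46 ± 0.37 (adjusted p = 0.00488), or 11-fold, with 3.63 (adjusted p = 0.023) after blocking slide. Its size depended on the processing, from 1.69 to 4.14 over the settings other than removals of single arrays. Of 17 serotonin, purine and other G protein coupled receptors Htr2b was the only one called, beside 0.983% of all genes. Sgk1, a kinase induced by serum and glucocorticoids that acts on ion transport, was bright in both groups, at 13.84, 14.12 and 14.21 against 12.13, 11.89 and 12.69. It rose by 1.82 ± 0.20 (adjusted p = 0.00488, and 0.0374 with slide blocked).

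Notch4, a Notch receptor, measured 8.13, 9.20 and 7.58 with TGFb and 6.07, 5.41 and 6.46 without, a rise of 2.32 ± 0.40 (adjusted p = 0.0282). Of 19 tested genes of the Notch pathway Notch4 alone was called, beside 0.983% of all genes. The list had a median of 0.18 (0.09 without untreated replicate 1). Cxcr4, the receptor of the chemokine Cxcl12, was at 10.20, 10.36 and 10.60 against 9.42, 8.83 and 9.33, a rise of 1.19 ± 0.18 (adjusted p = 0.0185). Havcr2, the checkpoint receptor Tim-3, was at 11.07, 11.57 and 11.30 against 9.53, 9.54 and 9.84, a rise of 1.68 ± 0.29 (adjusted p = 0.0293). These are receptors of different families, and each was the only riser of its list. Mcam, an adhesion molecule of the immunoglobulin family, was detected on no untreated array and was at least 1.8-fold higher with TGFb (adjusted p = 0.0182).

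Of the remaining large rises, Golm1, a Golgi membrane protein, went up by 1.88 ± 0.32 (adjusted p = 0.0261). Psat1, an enzyme of serine synthesis, rose by 1.77 ± 0.35 (adjusted p = 0.045) and Chst2, a sulfotransferase of carbohydrate chains, by 2.07 ± 0.31 (adjusted p = 0.018). Nrep (2.26, adjusted p = 0.0495), AU020206 (2.22, adjusted p = 0.0436), the polo-like kinase gene Plk3 (1.80, adjusted p = 0.0251), the glycogen-binding Stbd1 (1.80, adjusted p = 0.0302) and the actin-associated Rai14 (1.78, adjusted p = 0.018) also rose. Igfbp5 missed the threshold without TGFb replicate 2, TGFb replicate 3 or untreated replicate 1 (adjusted p = 0.0781, 0.0817 and 0.0686), as did Chst2, Rai14 and Cxcr4 (adjusted p = 0.0534 to 0.0879). Notch4, Havcr2, Golm1, Stbd1, Nrep and AU020206 passed without untreated replicate 3 only (otherwise adjusted p = 0.0519 to 0.179) and Plk3 without TGFb replicate 1 only (otherwise adjusted p = 0.0512 to 0.0781). Psat1 missed whichever of the 6 arrays was left out (adjusted p = 0.0741 to 0.162).

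C-type lectin receptors, myeloid surface proteins that bind carbohydrate and other ligands, held the largest falls. Clec4a1 measured 6.47, 6.24 and 5.53 with TGFb and 11.84, 9.94 and 10.48 without. The groups were far apart even at their nearest arrays, and Clec4a1 fell by 4.67 ± 0.52 (adjusted p = 0.00488), or 25.5-fold. Over the settings other than removals of single arrays its difference ran from -5.22 to -3.29. Clec4a3, of the same subfamily, measured 8.07, 7.76 and 7.43 against 11.25, 10.21 and 11.11. It fell by 3.10 ± 0.28 (adjusted p = 0.00356), and its second probe fell by 1.83 (adjusted p = 0.0184). Clec4b1, which pairs with the common Fc receptor gamma chain, was at 6.04, 4.82 and 4.80 with TGFb, detected on 1 of 3 arrays, and at 8.97, 8.68 and 8.48 without. It fell by 3.49 ± 0.37 (adjusted p = 0.00488), with the second probe at -2.40 (adjusted p = 0.0533). These family members resemble each other in sequence, and whether the probes tell them apart was not tested.

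These 3 receptor genes are neighbours on mouse chromosome 6, and their promoters are shown because they moved together, with that of Htr2b as a rise of similar size. Each run holds 250 bases before and 50 after the first start site that RefSeq lists (GRCm38.p6), 5′ to 3′ on the strand of the gene, with matches on either strand to CAGAC (the Smad binding element), TGANTCA (a loose form of the AP-1 site) or GAGGAAG (a core of the PU.1 site) in capitals. In TGANTCA any base was allowed at N, and the match in Htr2b is TGAATCA. The windows are chr6:122921598-122921897 (+) for Clec4a1, chr6:122952265-122952564 (+) for Clec4a3, chr6:123049712-123050011 (+) for Clec4b1 and chr1:86111931-86112230 (-) for Htr2b.
Clec4a1: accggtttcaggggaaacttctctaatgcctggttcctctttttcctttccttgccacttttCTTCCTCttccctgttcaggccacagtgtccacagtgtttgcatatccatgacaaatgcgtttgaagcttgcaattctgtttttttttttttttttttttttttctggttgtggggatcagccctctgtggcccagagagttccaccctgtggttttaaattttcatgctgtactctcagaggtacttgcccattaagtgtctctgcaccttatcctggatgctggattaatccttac
Clec4a3: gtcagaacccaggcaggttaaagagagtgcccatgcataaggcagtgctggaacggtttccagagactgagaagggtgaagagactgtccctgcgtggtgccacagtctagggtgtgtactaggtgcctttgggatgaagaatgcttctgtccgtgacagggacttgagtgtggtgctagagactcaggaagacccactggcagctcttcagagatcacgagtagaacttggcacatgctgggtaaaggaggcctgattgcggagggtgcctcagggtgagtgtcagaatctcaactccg
Clec4b1: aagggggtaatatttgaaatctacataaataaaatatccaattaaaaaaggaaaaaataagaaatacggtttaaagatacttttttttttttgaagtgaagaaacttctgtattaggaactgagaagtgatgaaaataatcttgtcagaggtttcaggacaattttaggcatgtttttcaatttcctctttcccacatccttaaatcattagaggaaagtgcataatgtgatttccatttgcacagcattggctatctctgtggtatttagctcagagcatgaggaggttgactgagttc
Htr2b: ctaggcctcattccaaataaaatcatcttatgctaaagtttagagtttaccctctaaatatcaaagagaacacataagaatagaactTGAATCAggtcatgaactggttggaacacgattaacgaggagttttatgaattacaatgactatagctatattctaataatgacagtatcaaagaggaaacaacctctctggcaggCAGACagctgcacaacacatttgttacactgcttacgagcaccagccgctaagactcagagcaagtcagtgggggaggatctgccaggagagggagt
In these windows Clec4a1 had 1 PU.1 match, starting at position -188 from the start site, and Htr2b had 1 AP-1 match at -163 and 1 CAGAC match at -47. None of the 3 motifs matched in the Clec4a3 and Clec4b1 windows. Globally aligned, the Clec4 windows were 43.2% to 45.8% identical to each other and 42.5% to 48% identical to that of Htr2b. CAGAC was found in 51.2% of the 43 promoters of genes that rose and 53.6% of the 28 of genes that fell, beside 47.2% of those of all tested genes and 49.7% of all 27025 in the table. For TGANTCA the shares were 11.6%, 14.3%, 4.88% and 7.93%, and for GAGGAAG 16.3%, 17.9%, 13.7% and 13.5%. The 71 promoters found for the 88 genes thus carried CAGAC about as often as any promoter, and a match is no evidence of binding.

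Of 19 tested C-type lectin receptors 4 fell (21.1%, beside 0.369% of all genes), the fourth being Cd93. The list was chosen with earlier results of these data known, so this share is a description and no test. All 4 also passed with slide blocked. In the list 17 were below 0, with a median of -0.67 beside 0.01 over all genes. The arrays did not overlap for 9 with TGFb lower and for 0 with TGFb higher, beside 8.55% and 9.17% of all genes. Where detection on at least 3 arrays was required, 16 were tested, with 14 below 0 and a median of -1.76. Cd93, a glycoprotein with a C-type lectin domain linked to phagocytosis, measured 7.05, 5.97 and 6.32 against 9.39, 9.37 and 8.98. It fell by 2.80 ± 0.40 (adjusted p = 0.0173) and missed the threshold without TGFb replicate 2, TGFb replicate 3 or untreated replicate 1 (adjusted p = 0.0699, 0.0668 and 0.0807). Mrc1, the mannose receptor, was at 9.85, 6.85 and 8.02 with TGFb and at 12.78, 10.75 and 11.54 without. Its arrays did not overlap, yet their scatter left the difference of -3.45 ± 0.73 short of the threshold (adjusted p = 0.0582, and 0.0388 without IL-4 replicate 1). With replicate number as a block Mrc1 passed (adjusted p = 0.000835), and with slide blocked it did not (adjusted p = 0.14). Clec7a, the beta-glucan receptor Dectin-1, was at -0.03 and was picked after its value was seen, as was Clec4d at -0.67 (adjusted p = 0.254).

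Mrc1 also marks the macrophages of the brain's borders, whose few tested markers stood below 0. All 5 tested of 13 border macrophage and monocyte markers had a negative difference and none was called, with Pf4 at -1.67 (adjusted p = 0.465) and Ms4a7 at -0.63 (adjusted p = 0.389). Only 4 were detected on any of the 6 arrays (F13a1, Mrc1, Ms4a7 and Pf4). The sign of a marker not detected on them means little. Over the 12 with a named probe the mean signal was 5.66 to 6.15 on the TGFb arrays and 6.13 to 6.80 on the untreated arrays, and Cd163, Lyve1 and Ccr2 were detected on none of the 6. Their part in the lower lectin signals was not tested. In RNA from whole cultures, fewer cells of a type and less RNA per cell cannot be told apart.

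**Figure D3:**
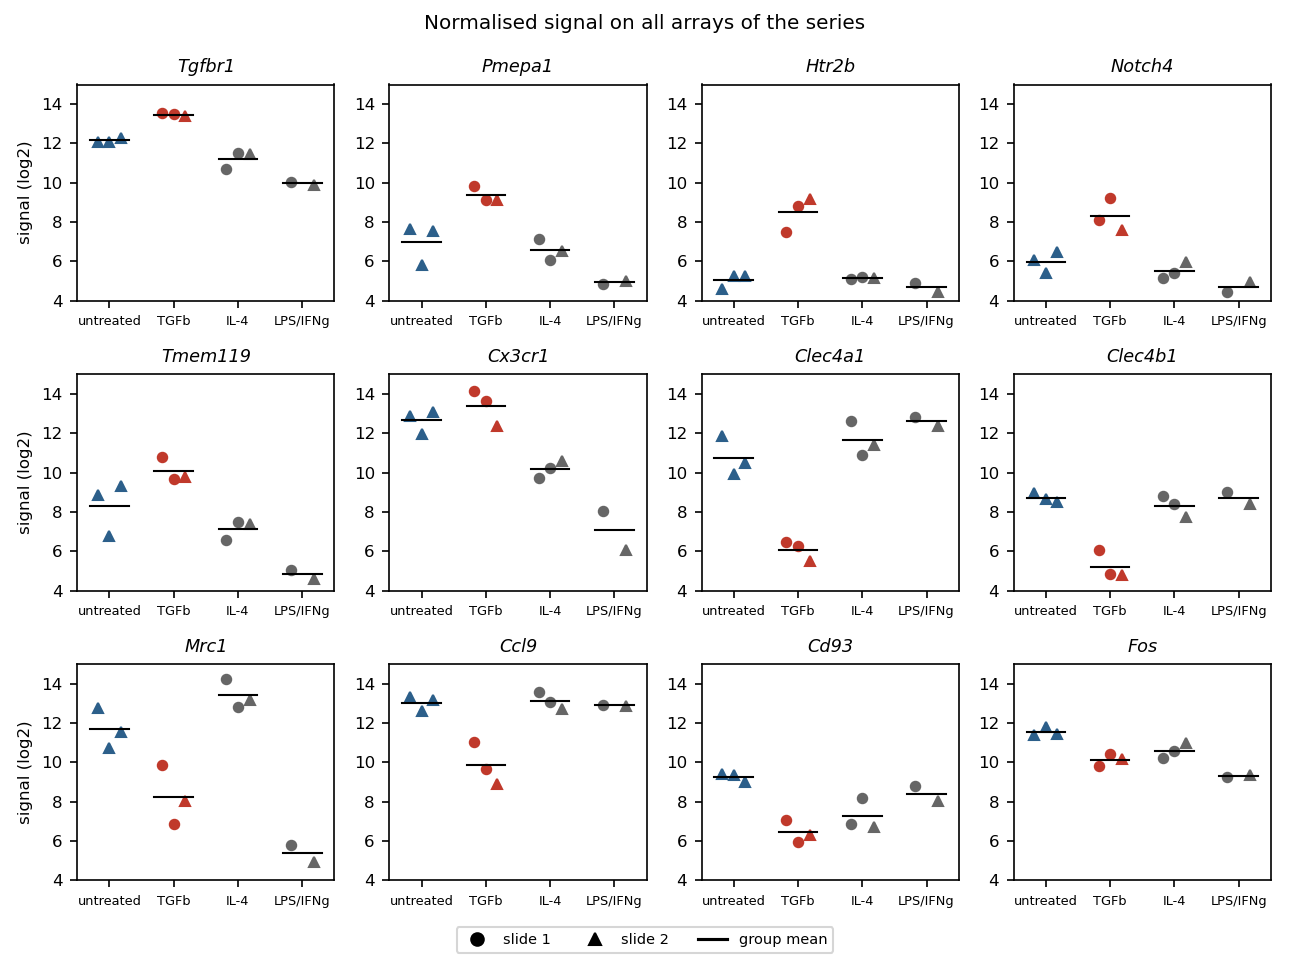
Normalised signal (log2, vertical axes) of 12 genes on the 11 arrays of the series by group, with circles for slide 1, triangles for slide 2 and a line at each group mean. Clec4a1, Clec4b1 and Ccl9 are low on the TGFb arrays and high in the other 3 groups, while the group means of Cd93 and Fos are lower than untreated in all 3 treated groups, that of Fos lowest with LPS/IFNg (9.32).

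The chemokines that fell were both of the CC class. Ccl9, a CC chemokine that attracts monocytes and dendritic cells, measured 11.03, 9.66 and 8.88 with TGFb and 13.32, 12.61 and 13.19 without. It fell by 3.19 ± 0.45 (adjusted p = 0.0173), or 9.1-fold, and fell by 3.70 (adjusted p = 0.023) with slide blocked. Ccl6 measured 6.85, 6.33 and 5.96 against 8.83, 7.80 and 8.91, and fell by 2.14 ± 0.34 (adjusted p = 0.0225, and 0.0897 with slide blocked). Both lost the call without TGFb replicate 2, TGFb replicate 3 or untreated replicate 1 (adjusted p = 0.0544 to 0.11). Of 21 tested chemokines 2 fell, beside 0.369% of all genes, and 19 were not called. Among these chemokines 16 were below 0, with a median of -1.08 (-0.37 without background correction, -0.53 in the authors' table). The arrays did not overlap for 5 of them with TGFb lower and for 2 with TGFb higher, beside 8.55% and 9.17% of all genes. Fpr2, a receptor for formylated and other chemotactic peptides, was at 8.05, 6.48 and 5.16 against 11.60, 9.62 and 10.41, a difference of -3.98 ± 0.88 that was not called (adjusted p = 0.0646, and 0.0173 without IL-4 replicate 1; picked after its value was seen).

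The other large falls were of genes with differing roles. Rgl1, an exchange factor for Ral GTPases, measured 6.85, 6.34 and 6.78 against 9.12, 8.54 and 8.92, and fell by 2.20 ± 0.25 (adjusted p = 0.00488). That value is from 1 probe, and a second, dim probe of Rgl1 was at -0.16 (adjusted p = 0.909). Dok2, an adaptor that restrains tyrosine kinase signalling, fell by 1.71 ± 0.29 (adjusted p = 0.0261) and Ptpn22, a tyrosine phosphatase of immune cells, fell by 1.92 ± 0.33 (adjusted p = 0.0266). Gas7 fell by 2.04 ± 0.34 (adjusted p = 0.0261), Chst7, a chondroitin sulfotransferase, fell by 2.01 ± 0.37 (adjusted p = 0.0339), and Lbr, the lamin B receptor of the inner nuclear membrane, fell by 1.73 ± 0.26 (adjusted p = 0.0182). Pid1 (-1.70, adjusted p = 0.0327), Scel (-1.84, adjusted p = 0.0299), Pcp4l1 (-1.68, adjusted p = 0.0213) and the replication factor gene Mcm10 (-1.52, adjusted p = 0.0499) complete the largest falls. Apart from Rgl1 these genes missed the threshold without at least 1 array, with Mcm10 highest at 0.204 without TGFb replicate 2. A second, dim probe of Mcm10 was at -0.33 (adjusted p = 0.811).

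Homeostatic microglia genes, which the cytokine is known to maintain in the brain, were higher in part. Of 35 tested, 2 rose (Golm1 and Tgfbr1), beside 0.614% of all genes, and 33 were not called. In the list 25 were above 0, with a median of 0.39 (0.15 without untreated replicate 2). The arrays did not overlap for 11 with TGFb higher and for 3 with TGFb lower, beside 9.17% and 8.55% of all genes. Tmem119, a surface protein specific to microglia within the brain, was at 10.79, 9.68 and 9.78 with TGFb and at 8.87, 6.75 and 9.34 without, a difference of 1.76 ± 0.58 (adjusted p = 0.233). Sall1, the transcription factor that defines microglia, was at 7.82, 8.15 and 8.31 against 7.34, 6.92 and 7.61, a difference of 0.81 ± 0.22 (adjusted p = 0.135). For both genes the arrays did not overlap. Cx3cr1, the fractalkine receptor, was at 14.15, 13.64 and 12.39 against 12.89, 11.99 and 13.07, with overlapping arrays (0.74, adjusted p = 0.721), and on slide 2 alone at -0.26.

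P2ry12, the microglial ADP receptor, was low in both groups, at 7.59, 6.84 and 7.18 against 7.62, 5.76 and 7.06 (0.39, adjusted p = 0.873). Csf1r, the receptor on which microglia depend for survival, was at 12.78, 12.51 and 12.51 against 13.39, 12.87 and 13.21, a difference of -0.56 (adjusted p = 0.434) between arrays that did not overlap. Untreated replicate 2 had the lowest mean over the tested homeostatic genes, 10.44 against 10.91 and 11.14 on the other untreated arrays and 11.17 to 11.41 on the TGFb arrays. Microglia markers as a whole averaged 11.39 to 11.78 with TGFb and 10.78 to 11.59 without. The part of that array in the higher homeostatic signals was not tested beyond the median given without it.

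Inflammatory genes were mostly lower, and none passed the test in the fit without blocks. None of 20 proinflammatory cytokines and effectors was called, with 14 below 0 and a median of -0.14 (-0.27 without TGFb replicate 1, -0.03 without TGFb replicate 2). Some of the 20 were detected on few arrays. Where detection on at least 3 of the 11 was required, 15 were tested, with 11 below 0 and a median of -0.30. Il1b, interleukin 1 beta, was at 11.55, 9.55 and 8.93 with TGFb and at 12.77, 11.20 and 12.30 without, which overlap (-2.08 ± 0.71, adjusted p = 0.259). With replicate number as a block Il1b passed (adjusted p = 0.0432), the 1 fall of its list there, and with slide blocked it did not (adjusted p = 0.244). Tnf, tumour necrosis factor, was at 7.71, 7.45 and 7.75 against 8.10, 8.19 and 7.51 (-0.30, adjusted p = 0.799). Casp1, the protease that matures interleukin 1 beta, was at -0.45 (adjusted p = 0.407). Of 34 genes of the NF-kB pathway and toll-like receptors none was called and 23 were below 0, with a median of -0.23. The LPS co-receptor Cd14 was at -0.22 (adjusted p = 0.906) and the lipoprotein receptor Tlr2 at 0.25 (adjusted p = 0.918).

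Interferon-stimulated genes, which type I interferon induces, were below 0 in 39 of 41 tested, with a median of -0.78 (-0.86 by median scaling, -1.02 with slide blocked). None was called, and 5 fell without IL-4 replicate 1. The arrays did not overlap for 21 of them with TGFb lower and for 0 with TGFb higher, beside 8.55% and 9.17% of all genes. Their mean signal was 7.82, 7.59 and 7.31 on the TGFb arrays and 8.66, 7.98 and 8.52 on the untreated arrays. Gbp2, an interferon-induced GTPase picked after its value was seen, was at 7.40, 5.39 and 5.40 against 8.74, 7.97 and 8.72 (-2.41 ± 0.89, adjusted p = 0.3, and 0.0326 without IL-4 replicate 1). The 2 members with the highest signal, Ly6e and Lgals3bp, were at -0.18 (adjusted p = 0.98) and -0.13 (adjusted p = 0.945).

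**Figure D4:**
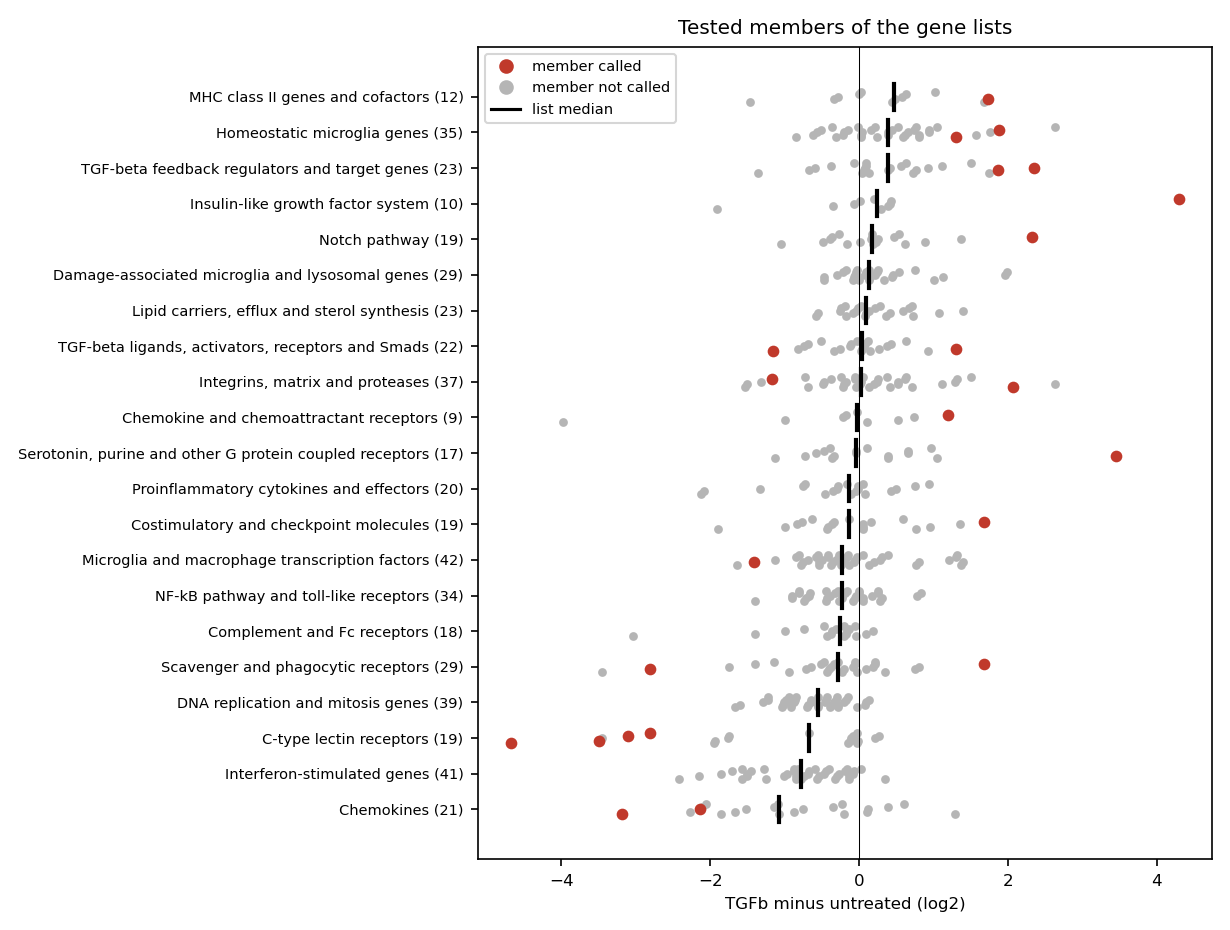
Difference between TGFb and untreated (log2, horizontal axis) for each tested member of 21 gene lists, with called members in red, members not called in grey and a bar at the median of the list; the number of tested members stands in brackets. Medians run from -1.08 for chemokines to 0.47 for MHC class II genes, and the C-type lectin receptors hold 4 called members, the most of any of these lists.

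Among genes of antigen presentation, 1 of 12 tested MHC class II genes and cofactors rose, beside 0.614% of all genes. H2-Ob, a chain of the H2-O dimer that restrains peptide loading, measured 7.66, 7.40 and 7.35 with TGFb and 5.50, 5.34 and 6.35 without, a rise of 1.74 ± 0.25 (adjusted p = 0.0173). The list had a median of 0.47 (0.19 without untreated replicate 2), with the invariant chain Cd74 at -1.47 (adjusted p = 0.326; picked after its value was seen). H2-Ob lost the call without TGFb replicate 2, TGFb replicate 3 or untreated replicate 1 (adjusted p = 0.0699, 0.0591 and 0.0867). Of 19 costimulatory and checkpoint molecules Havcr2 was the 1 called, beside 0.983% of all genes.

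Receptors for uptake split. Of 29 scavenger and phagocytic receptors Havcr2, which also binds phosphatidylserine, rose and Cd93 fell, beside 0.614% and 0.369% of all genes. In the list 21 were below 0, with a median of -0.28 (-0.17 without untreated replicate 3). None of 18 complement and Fc receptor genes was called, with C1qb at -0.20 (adjusted p = 0.804), the Fc receptor gamma chain Fcer1g at -0.13 (adjusted p = 0.861) and a list median of -0.25, which ran from -0.10 without untreated replicate 1 to -0.61 without untreated replicate 2. None of 29 damage-associated and lysosomal genes and none of 23 genes of lipid transport and sterol synthesis was called, with medians of 0.13 and 0.10 (0.25 and 0.23 without TGFb replicate 1). Their brightest members were Apoe, the main lipid carrier of the brain, at 0.14 (adjusted p = 0.922), the lysozyme Lyz2 at -0.30 (adjusted p = 0.467) and the lipase Lpl at -0.18 (adjusted p = 0.969).

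Of 37 integrins, matrix genes and proteases, 1 rose and 1 fell, beside 0.614% and 0.369% of all genes. Their median was 0.03 (-0.08 by median scaling). Cspg4, the proteoglycan NG2, measured 6.97, 8.18 and 6.99 with TGFb and 5.32, 5.04 and 5.56 without, where 2 of 3 arrays detected it. It rose by 2.07 ± 0.31 (adjusted p = 0.0182) and missed the threshold without TGFb replicate 3, untreated replicate 1 or untreated replicate 2 (adjusted p = 0.0544, 0.0867 and 0.0533). Itga9, an integrin chain that binds tenascin and other ligands, measured 7.33, 7.69 and 7.58 against 8.69, 9.09 and 8.30. It fell by 1.16 ± 0.20 (adjusted p = 0.0269), which passed without untreated replicate 3 only (otherwise adjusted p = 0.0653 to 0.12). A second, dim probe of Itga9 was at -0.30 (adjusted p = 0.802).

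Cspg4 is also a marker of mural cells and of oligodendrocyte precursors. Of 16 fibroblast and mural markers 10 were detected on none of the 6 arrays, including Pdgfrb, Rgs5 and Kcnj8. Over all 16 the mean signal was 4.83 to 5.20 on the TGFb arrays and 4.57 to 4.91 on the untreated arrays. Acta2, smooth muscle actin, was at 8.71, 8.54 and 8.21 with TGFb and at 9.27, 5.96 and 6.56 without, which overlap (1.23, adjusted p = 0.838). Over 13 markers of the oligodendrocyte lineage, Cspg4 included, the means were 5.57 to 5.60 and 5.30 to 5.60, with Pdgfra, Olig2 and Sox10 undetected. The part of such cells in the rise of Cspg4 was not tested.

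Genes of DNA replication and mitosis lay to the lower side together. Of 39 tested 36 were below 0, none was called, and 2 fell without IL-4 replicate 1. Their median was -0.56 (-0.67 by median scaling, -0.56 with slide blocked), and the arrays did not overlap for 18 with TGFb lower and for 0 with TGFb higher, beside 8.55% and 9.17% of all genes. Cenpa, the histone of centromeres, was at 9.91, 8.86 and 9.34 against 10.43, 10.11 and 10.57 (a difference of -1.003 ± 0.26, adjusted p = 0.116). Ccnd1, cyclin D1, was at 11.38, 10.59 and 10.39 against 11.76, 11.73 and 11.41 (-0.85 ± 0.38, adjusted p = 0.453). Of both, every TGFb array was below every untreated array.

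Of 42 tested transcription factors of microglia and macrophages 1 was called, beside 0.983% of all genes. Fos, a subunit of AP-1, measured 9.84, 10.44 and 10.15 with TGFb and 11.41, 11.81 and 11.43 without. It fell by 1.41 ± 0.22 (adjusted p = 0.0195), which passed without untreated replicate 3 only (otherwise adjusted p = 0.0519 to 0.0807). The immediate early genes Egr1 and Egr2, picked after their values were seen, were at 1.38 (adjusted p = 0.163) and 1.32 (adjusted p = 0.0841), and both passed without IL-4 replicate 1 (adjusted p = 0.0374 and 0.0454). Spi1, which encodes PU.1, was at 7.89, 8.34 and 8.06 against 9.02, 8.51 and 8.84 (-0.69 ± 0.17, adjusted p = 0.107; also picked afterwards).

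TGFb and IL-4 arrays had the same split over the slides (replicates 1 and 2 on slide 1, replicate 3 on slide 2), so their difference was also tested. It was called for 768 genes (8.58%), 417 of them higher with TGFb (4.66%) and 351 lower (3.92%). With slide blocked it was called for 682 (7.62%), 370 higher (4.13%) and 312 lower (3.49%). Both comparisons use the TGFb arrays, so their values are set side by side only. The difference of Clec4a1 from IL-4 was -5.58 (adjusted p = 0.000286), beside -4.67 from untreated cells. Differences from IL-4 in the direction of the difference from untreated cells were also called for Clec4a3 (-4.29, adjusted p = 4.74e-05), Clec4b1 (-3.08, adjusted p = 0.00105), Ccl9 (-3.28, adjusted p = 0.00213), Rgl1 (-3.30, adjusted p = 9.66e-05), Htr2b (3.34, adjusted p = 0.000701), Igfbp5 (5.27, adjusted p = 0.00117), Sgk1 (2.58, adjusted p = 0.000128), Tgfbr1 (2.24, adjusted p = 0.000239) and Pmepa1 (2.79, adjusted p = 0.00502). Except for Clec4b1 and Htr2b, the IL-4 mean of these genes and of Clec4a1 lay on the other side of the untreated mean, which enlarges the difference from IL-4. For Clec4a3 IL-4 minus untreated was 1.19, for Rgl1 1.10 and for Tgfbr1 -0.93.

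For Cd93 and Fos the difference from IL-4 did not pass (-0.82, adjusted p = 0.27, and -0.44, adjusted p = 0.28). The same held for Pid1 (-0.46, adjusted p = 0.437), Pcp4l1 (-0.49, adjusted p = 0.325), Scel (-0.37, adjusted p = 0.566) and Ptpn22 (-0.79, adjusted p = 0.19). Among genes not called against untreated cells, Cx3cr1 was 3.21 higher with TGFb than with IL-4 (adjusted p = 0.00635), Tmem119 2.93 higher (adjusted p = 0.0122) while Mrc1 was at -5.18 (adjusted p = 0.00236). In these genes the IL-4 mean lay on the other side of the untreated mean from the TGFb mean, at 10.18 for Cx3cr1, 7.15 for Tmem119 and 13.42 for Mrc1.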

How the data were processed

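Biotin-labelled cRNA of primary mouse microglia was read on 11 Illumina mouse BeadChip arrays, spread over 2 slides. Per the file headers, the deposited scanner table gives each probe an intensity (mean bead signal, linear, not normalized) on each array, for 45281 probes. Per the file headers it also gives a detection p-value for each probe and array. A second table, deposited by the authors, holds log2 values and served as an alternative. Partek is the 1 tool that the submitters' processing notes give, and the steps run in it are not stated.

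Intensities were corrected, quantile normalized and put on the log2 scale by the neqc function (R 4.3.3, limma 3.58.1), whose normexp step took the background from the detection p-values and added an offset of 16. Probes detected (p below 0.01) on at least 2 arrays were kept, 15937 in all, of which 13765 had 1 gene, and each gene was represented by its brightest probe, which left 8952 genes. Gene symbols came from the platform annotation, 34807 of 34885 brought up to date by Entrez identifier through RefSeq. All 11 arrays were fitted by lmFit and eBayes with 1 mean per group. TGFb minus untreated was adjusted over all genes (Benjamini-Hochberg), and an adjusted p below 0.05 was called. TGFb minus IL-4 was tested in the same model. Where no array of the lower group detected the probe, a fold is written as at least N-fold. For this bound each array of that group enters at the signal of the probe or of the dimmest detected probe of the array, whichever is larger. Precision is limited by having 3 arrays a group.

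Named were the 16 largest called rises and falls whose arrays did not overlap, up to 3 called rises and 3 falls of each of 21 lists (the 2 brightest members where none was called), and a panel of pathway, microglia and inflammatory genes. Members, lists and markers were chosen with earlier results of these data known, so the shares and medians of a list are descriptions and no tests. Promoters came from RefSeq (GRCm38.p6) and were aligned with Biopython 1.88. Alternatives were other background, scaling, detection and probe choices, the authors' table, a block for slide or for replicate number, weighted arrays, a robust fit with a trend in intensity, a fit of the compared groups alone, and single arrays left out.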

Additional observations from a re-analysis of the deposited data

How the results depend on the processing

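The number of genes called between TGFb and untreated arrays, 88, moved with the processing and with single arrays. It was 289 in the authors' table, 56 with no filter on detection, 9 with slide as a fixed block, 0 on slide 2 alone, 289 with array weights, 40 on the TGFb and untreated arrays alone, 6 to 97 when 1 array of these groups was left out and 228 without IL-4 replicate 1. Without background correction it was 119, of which 74 were among the 88, and with every passing probe tested 113. Of the 40 on the TGFb and untreated arrays alone, 29 were among the 88. In that fit no member of the insulin-like growth factor, feedback and target, chemokine, Notch or MHC class II lists was called. Igfbp5, Pmepa1, Spsb1, Ccl9, Ccl6, Notch4 and H2-Ob thus lost the call there. The cause of these shifts was not tested, except that a replicate less or 1 slide alone leaves fewer arrays and no filter means more genes tested (19057). TGFb against IL-4 gave 768 calls, 478 on the arrays of these groups alone, 391 to 694 without 1 TGFb array or IL-4 replicate 1, and 214 higher and 431 lower by median scaling.

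Same-numbered TGFb and untreated arrays deviated from their group means at correlations of 0.485, 0.111 and -0.0992, and unlike-numbered ones at -0.478 to 0.418. These values do not settle whether the numbers pair samples, and the fit used above did not pair them. With replicate number as a block 148 genes were called, 83 of them among the 88, and on the TGFb and untreated arrays alone 67, of which 31 were among the 88. Mrc1 (adjusted p = 0.000835) and Il1b (adjusted p = 0.0432) were called with this block on all arrays but not without it. TGFb replicate 3 correlated best with untreated replicate 2 (0.418).

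The arrays of all 88 called genes do not overlap, which by itself fixes their sign when arrays are left out and on slide 2. None of them reversed in the other settings, but the size of their differences changed. Over the 16 settings other than removals of single arrays, Clec4b1 ran from -3.96 to -1.76 and Scel from -2.19 to -0.604. Sgk1 ran from 1.75 to 1.98 and Tgfbr1 from 1.22 to 1.33. Of the 25 uncalled genes that were named by the rule given above, 10 reversed in some setting. Genes picked outside that rule were not followed over the settings. Smad2 reversed by median scaling (-0.0719) and without untreated replicate 3 (-0.00567). Lpl reversed in the authors' table (0.326), with slide blocked (0.329), on slide 2 (0.216), with array weights (0.0484), without TGFb replicate 1 (0.187) and without untreated replicate 2 (0.197). Tlr2 reversed in the authors' table (-0.135), with slide blocked (-0.155), on slide 2 (-0.101) and without untreated replicate 2 (-0.249). On slide 2 Apoe was at -0.0796 and Cx3cr1 at -0.259. Tgfbr2 reversed with array weights (-0.0402), without TGFb replicate 1 (-0.027) and without untreated replicate 1 (-0.0444). Without TGFb replicate 3 Cd14 was at 0.00602 and Ly6e at 0.0631, and Ly6e was at 0.281 and 0.254 without untreated replicates 1 and 3. P2ry12 was at -0.134 without untreated replicate 2 and Lgals3bp at 0.11 without untreated replicate 3. Over the removals of single arrays Smad2 ran from -0.00567 to 0.0959, Lpl from -0.598 to 0.197, Tlr2 from -0.249 to 0.522, Tgfbr2 from -0.0444 to 0.161, Cd14 from -0.382 to 0.00602, Ly6e from -1.09 to 0.281, P2ry12 from -0.134 to 0.794 and Lgals3bp from -0.432 to 0.11. Low signal limits genes near the level of undetected probes. Over the settings other than removals of single arrays Chst2 ran from 0.717 to 2.52 and Stbd1 from 0.697 to 2.01. Whether such differences are too small or too large was not tested.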

Other observations

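Among called genes outside the lists, several enzymes and membrane proteins rose, all chosen after their values were seen. Hsd11b1, which regenerates active glucocorticoid, rose by 1.53 log2 units (adjusted p = 0.0151), from 5.43 to 6.96 in group mean. Tnfrsf12a, the receptor of the cytokine Tweak, rose by 1.45 (adjusted p = 0.0173), Cnr2, the cannabinoid receptor of immune cells, by 1.01 (adjusted p = 0.0303), and Wwtr1, the transcriptional coactivator Taz, by 1.21 (adjusted p = 0.0235). Klhl6, an adaptor of ubiquitin ligases, was among the brighter genes and rose by 1.29, from 11.23 to 12.53 (adjusted p = 0.0261). Among the falls, Ebi3, a subunit of interleukin 27 and 35, fell by 1.41 (adjusted p = 0.0235), Cyp27a1, a sterol hydroxylase of mitochondria, by 1.15 (adjusted p = 0.0266), and Tcf7l2, a transcription factor of Wnt signalling, by 1.50 (adjusted p = 0.0372). None of these passed with slide as a block.

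The 2172 passing probes without 1 gene name lie outside the comparisons above. In a fit of all passing probes 7 of them were called higher and 7 lower with TGFb. The largest difference was 3.56 (adjusted p = 0.000938), from 5.07 to 8.63 in group mean.

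Other probes were available for 29 of the 88 called genes. All 41 of them had the sign of the probe in use and 18 were called. A probe each of Rgl1 (-0.16), Zdhhc14 (-0.15) and Luzp1 (0.09) was near 0, and those of Itga9 (-0.30) and Mcm10 (-0.33) were small. A further probe of Luzp1 was at 0.96.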
